A study of Homo sapiens with 18 samples.

Results

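The 6 genes that carry riboflavin into cells or turn it into cofactors were followed in human intestinal cells grown with and without the vitamin: the plasma membrane transporters SLC52A1, SLC52A2 and SLC52A3, riboflavin kinase RFK, FAD synthase FLAD1 and the mitochondrial carrier SLC25A32. The members were all probe sets of the array to which the platform annotation gives exactly 1 of these symbols, whatever their signal. That gave 9 probe sets for 5 of the 6 genes, among 54675 on the array, with 2 each for SLC52A2, SLC52A3, RFK and FLAD1, 1 for SLC25A32 and no probe set named for SLC52A1 alone. Of the 9 probe sets 8 passed the filter on low signal, which kept 27307 in all, and the ninth, for SLC52A3, was below it.

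The cells were Caco-2, a human colon carcinoma line that serves widely as a stand-in for intestinal epithelium. Control cells grew in DMEM and depleted cells in riboflavin-free DMEM, and RNA was taken at 24, 48 and 72 h, which gave 6 groups of 3 arrays. Both media held foetal calf serum, penicillin and streptomycin. Dialysed serum is mentioned in the protocol, but the labels do not say whether the cells on these arrays received it, so riboflavin left from serum in the depleted medium is not known. Nothing in the labels ties the 3 arrays of a group to separate cultures, so each p-value speaks to the scatter among these samples, which may be technical. A line of tumour origin represents 1 donor, and all groups share it.

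Riboflavin (vitamin B2) cannot be made by human cells. It enters through the SLC52 transporters, of which SLC52A3 is known as the main apical transporter of the intestine, SLC52A2 is expressed in many tissues and SLC52A1 is a close relative of SLC52A2. In the cytosol RFK phosphorylates it to flavin mononucleotide (FMN), FLAD1 joins FMN to an adenylate group to give flavin adenine dinucleotide (FAD), and SLC25A32 is known as the carrier of folate and FAD in the inner mitochondrial membrane. FMN and FAD are held by dehydrogenases, oxidases and reductases, many of them mitochondrial.

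The arrays were numbered so that numbers 1 to 6, 7 to 12 and 13 to 18 each held all 6 groups once, and these are called sets 1, 2 and 3 here. Set 2 stood apart from the other sets in all groups alike: its arrays had a median signal of 25.7 to 31.3 and a highest signal of 27380 to 31410, against medians of 18.4 to 23.3 and highest signals of 6905 to 8575 in sets 1 and 3. In its labels 3 of the 6 arrays of set 2, both at 24 h and the control at 48 h, carry a suffix of unstated meaning after their number. Comparisons were therefore read within sets as well as between groups, and every test was made without and with the set as a block. Markers of colonic epithelium were present in all groups, with 13 of 14 past the filter (the lectin LGALS4 was below it) and a summed signal of 23957 to 37344 in control and 24325 to 34566 in depleted arrays. Of these markers TSPAN8 (log2 difference 0.72, SE 0.11, adjusted p = 0.00113) and CEACAM5 (1.18, SE 0.19, adjusted p = 0.00191) rose in depleted cells in the average over the times. That makes 2 of 13 higher and 0 lower, and the median of the 13 was -0.06. With the block GPA33 was a further one (0.44, adjusted p = 0.0442), at 0.67 at 24 h and -0.17 at 72 h. CEACAM5 was at 0.43 at 24 h and 1.97 at 72 h. KRT8, also picked from this list, was at -0.14 in the average (adjusted p = 0.674). Sums for other cell types were taken over all their markers on the array, whether past the filter or not. They were 497.7 to 786.7 in control and 404.9 to 644.0 in depleted arrays for 7 fibroblast markers. For 5 leukocyte markers they were 209.7 to 396.5 and 298.0 to 455.1, and for 6 endothelial markers 62.2 to 155.5 and 72.5 to 140.4. Past the filter were 5, 4 and 1 of these. Below the filter were PTPRC, COL1A2, PDGFRB, VWF, CDH5, KDR, TEK and CLDN5. Past it were COL1A1, COL3A1, DCN, LUM, THY1, CD3E, CD14, ITGAM, LYZ and PECAM1. None of those past it was called without the block. With the block COL1A1 was lower in the average over the times (-0.61, adjusted p = 0.0223) and at 72 h (-1.05, 0.0247). LYZ was higher in the average (0.39, 0.0157) and at 72 h (0.76, 0.00838), and LUM was higher in the average (0.35, 0.0308). The part of these markers in the results was not tested, and less RNA per cell and fewer cells that express a gene cannot be told apart in bulk RNA.

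Without the block none of the 8 probe sets past the filter was called in the depletion comparisons at 24, 48 or 72 h or averaged over the times, beside 0.216%, 0.0806%, 4.16% and 4.26% of all 27307 probe sets called by limma at an adjusted p under 0.05. The counts at an unadjusted p under 0.05 were 0 of 8 in each. With the block 0, 0, 1 and 0 of the 8 were called, beside 2.37%, 0.692%, 13.3% and 15.0% of all, and 3, 0, 2 and 1 had an unadjusted p under 0.05. The probe set called was 1 of the pair for FLAD1, lower in depleted cells at 72 h. SLC25A32 was the only other member with a call from either fit over all arrays, and that call was between times within depleted cells.

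**Figure D1:**
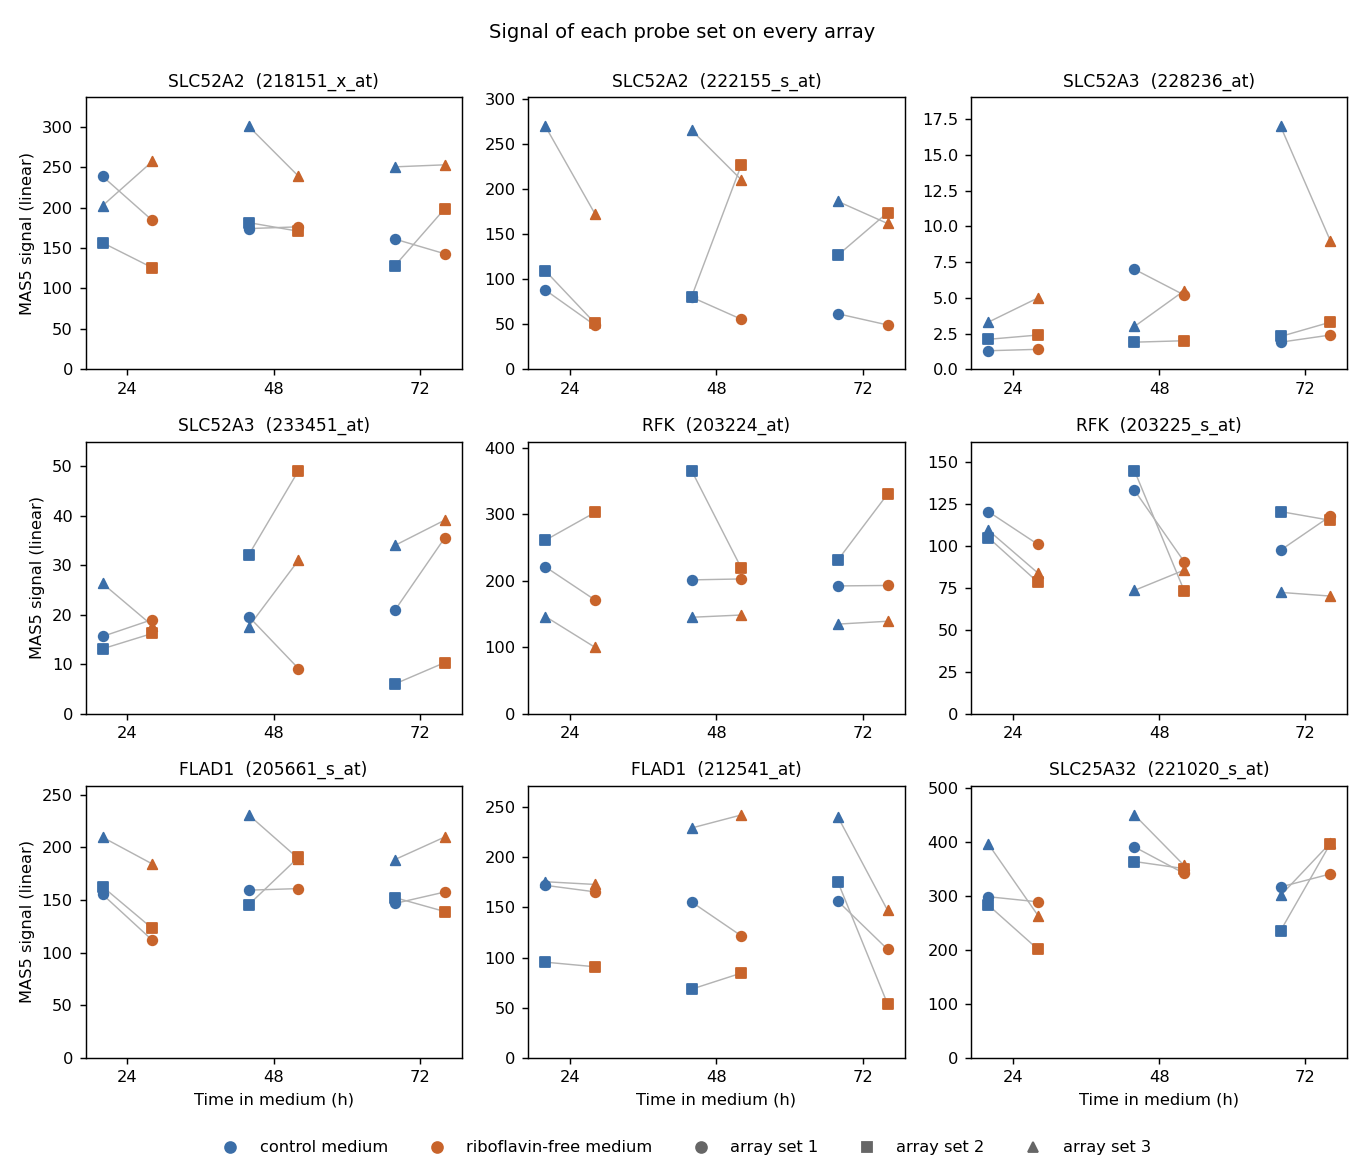
MAS5 signal (linear scale, arbitrary units, own axis for each probe set, from 0) of the 9 probe sets against time in medium (h), with 1 point per array, blue for control and orange for depleted cells, circles, squares and triangles for sets 1, 2 and 3, and a grey line joining the 2 media within a set. For SLC25A32 the depleted arrays lie below the control arrays at 48 h (341.6 to 356.4 against 363.7 to 450.0) and above them at 72 h (340.7 to 398.2 against 235.8 to 316.6).

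SLC52A2 encodes the broadly expressed riboflavin transporter, and its 2 probe sets gave no call over all arrays. By probe set 218151_x_at (the x is the manufacturer's mark for probes that may also bind other transcripts) its signal in sets 1, 2 and 3 was 238.7, 156.6 and 202.5 in control cells and 184.2, 125.7 and 257.2 in depleted cells at 24 h. At 48 h the values were 174.1, 181.5 and 300.5 in control and 176.3, 170.8 and 238.9 in depleted cells, and at 72 h 161.1, 128.3 and 250.5 in control and 143.0, 198.6 and 253.0 in depleted cells. The ranges of control and depleted cells overlapped at every time, and the difference had a different sign in at least 1 set at each time. Averaged over the times the log2 difference of depleted from control cells was -0.03 (SE 0.18, 95% interval -0.40 to 0.35, limma adjusted p = 0.963). For the same difference the blocked fit gave an SE of 0.11, a 95% interval of -0.27 to 0.22 and an adjusted p of 0.902.

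Probe set 222155_s_at of the same gene varied more between sets. At 24 h it gave 87.8, 109.1 and 269.3 in control and 48.7, 50.9 and 172.0 in depleted cells, so that the depleted value was lower in all 3 sets although the groups overlapped. At 48 h it gave 80.0, 80.6 and 265.1 in control and 55.5, 226.6 and 210.1 in depleted cells, and at 72 h 61.6, 126.5 and 186.2 in control and 49.2, 173.7 and 161.7 in depleted cells. In sets 1 and 3 the depleted value was the lower one in 6 of 6 pairs, a pattern of 7.61% of all probe sets, and in set 2 it was the higher one at 48 and 72 h. The averaged log2 difference was -0.18 (SE 0.35, 95% interval -0.93 to 0.57, adjusted p = 0.866), and -0.18 with the block (adjusted p = 0.578). With the block and without set 2 it was -0.41 (SE 0.08, 95% interval -0.59 to -0.23, adjusted p = 0.0164), a fit that called 12.2% of all probe sets. Without set 1 or set 3 the blocked value was -0.04 (adjusted p = 0.945) or -0.09 (adjusted p = 0.889). The 2 probe sets of SLC52A2 had the same direction in 5 of the 9 pairs of set and time.

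SLC52A3, the apical intestinal transporter, had no call. Its probe set 228236_at had signals of 1.3 to 17.0 with a median of 2.7 over the 18 arrays, and was below the filter. Its other probe set, 233451_at, passed the filter, and at 24 h gave 15.6, 13.1 and 26.3 in control and 19.0, 16.2 and 17.8 in depleted cells. Its values at 48 h were 19.6, 32.1 and 17.6 in control and 9.1, 49.1 and 31.0 in depleted cells, and at 72 h 20.9, 6.0 and 34.0 in control and 35.5, 10.3 and 39.1 in depleted cells. At 72 h the depleted value was higher in all 3 sets (26.0% of all probe sets), but the groups overlapped widely. The log2 difference at 72 h was 0.29 (SE 0.36, 95% interval -0.47 to 1.06, adjusted p = 0.787) and that averaged over the times 0.14 (SE 0.21, 95% interval -0.30 to 0.58, adjusted p = 0.809). A pseudocount of 16 was added before the logarithm, which understates differences at signals this low. Detection calls were not used here, so these signals do not show whether the transcript was present.

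RFK and FLAD1, which carry out the successive steps from riboflavin to FAD, are the members whose promoters are in the RefSeq table (2 of 6). Their 250 bases before the transcription start are shown because these enzymes make the cofactors, and each had 1 probe set that separated the media without overlap at 1 time. RFK lies on the minus strand at chr9:76394427-76394676 and FLAD1 on the plus strand at chr1:154983094-154983343 (GRCh38.p14), and both sequences read 5′ to 3′ along the gene, with matches to the motifs searched in capitals.
RFK: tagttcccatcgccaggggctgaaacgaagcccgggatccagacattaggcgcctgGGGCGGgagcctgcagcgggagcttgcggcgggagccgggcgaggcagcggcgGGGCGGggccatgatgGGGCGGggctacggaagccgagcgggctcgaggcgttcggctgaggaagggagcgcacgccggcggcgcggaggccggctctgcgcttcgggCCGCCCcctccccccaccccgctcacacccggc
FLAD1: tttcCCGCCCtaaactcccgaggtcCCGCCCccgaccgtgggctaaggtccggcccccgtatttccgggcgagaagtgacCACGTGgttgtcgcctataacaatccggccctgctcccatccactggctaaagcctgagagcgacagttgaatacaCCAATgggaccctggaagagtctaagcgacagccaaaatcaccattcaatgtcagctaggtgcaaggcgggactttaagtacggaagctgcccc
The motifs searched on both strands were the GC box GGGCGG bound by SP1, the CCAAT box, the E-box CACGTG, the NRF2 element TGACNNNGC and the ATF4 element TGATGNAA. RFK held 4 GC boxes, FLAD1 held 2 GC boxes, 1 CCAAT box and 1 E-box, and neither held a match to TGACNNNGC or TGATGNAA. Over 35116 promoters of the same length 42.6% held the GC box, 32.0% the CCAAT box, 6.34% the E-box, 10.9% TGACNNNGC and 3.14% TGATGNAA. These matches describe the letters of this window only.

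For RFK, probe set 203224_at at 24 h gave 220.8, 261.1 and 146.1 in control and 170.9, 303.0 and 99.6 in depleted cells. At 48 h it gave 201.3, 365.7 and 145.0 in control and 202.7, 219.0 and 148.4 in depleted cells, and at 72 h 192.2, 231.1 and 134.7 in control and 192.9, 330.4 and 139.0 in depleted cells. Set 2 was the highest and set 3 the lowest in every group, and within sets 1 and 3 the control and depleted values at 48 and 72 h were close. The averaged log2 difference was -0.08 (SE 0.23, 95% interval -0.56 to 0.40, adjusted p = 0.909). For the same difference the blocked fit gave an SE of 0.10, a 95% interval of -0.30 to 0.14 and a limma adjusted p of 0.643.

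The other probe set of RFK, 203225_s_at, had lower signals in all 3 depleted arrays than in any control array at 24 h: 120.5, 105.0 and 109.4 in control against 100.9, 78.3 and 83.8 in depleted cells. Such a gap at 24 h, with depleted cells lower, was seen in 5.28% of all probe sets. The groups overlapped at 48 h (133.2, 144.9 and 73.5 in control, 90.6, 73.3 and 85.6 in depleted cells) and at 72 h (97.5, 120.5 and 72.3 in control, 117.8, 115.3 and 70.1 in depleted cells). The log2 differences at 24, 48 and 72 h were -0.30 (SE 0.25), -0.38 (SE 0.25) and 0.05 (SE 0.25), with adjusted p of 0.839, 0.818 and 0.963. Averaged over the times it was -0.21 (SE 0.14, 95% interval -0.52 to 0.09, adjusted p = 0.499). For this average the blocked fit gave an SE of 0.11, a 95% interval of -0.45 to 0.03 and a limma adjusted p of 0.232. The 2 probe sets of RFK had the same direction in 5 of 9 pairs.

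FLAD1 was the member with a call for depletion, in 1 of its 2 probe sets and only with the block. Probe set 212541_at at 72 h gave 156.3, 175.6 and 240.4 in control and 108.3, 53.9 and 147.2 in depleted cells. All depleted arrays were below all control arrays, a pattern of 11.6% of all probe sets at that time, and the gap within a set was widest in set 2. The means were 190.8 ± 44.1 and 103.1 ± 46.9 (SD, n = 3 each), and the log2 difference was -0.86, which is 1.81-fold lower on the log2(signal + 16) scale. Its SE was 0.43 and its adjusted p 0.329 without the block, and 0.22 and 0.0202 with it (95% interval -1.33 to -0.38, limma). Of all probe sets 6.90% were called lower at 72 h with the block. The blocked call was lost without the depleted array of set 1 (-0.91, adjusted p = 0.0525), of set 2 (-0.78, 0.0808) or of set 3 (-0.89, 0.0517) at 72 h, without the control array of set 2 at 72 h (-0.59, 0.102), and without any whole set, where the differences were -1.05, -0.56 and -0.96 without sets 1, 2 and 3 (adjusted p 0.107, 0.150 and 0.115).

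At 24 h the same probe set of FLAD1 was nearly level within each set, and at 48 h the sets went both ways. It gave 172.0, 95.4 and 175.6 in control and 165.5, 90.8 and 172.9 in depleted cells at 24 h, and 155.4, 68.5 and 229.2 in control and 121.6, 84.5 and 242.2 in depleted cells at 48 h. The log2 differences were -0.04 (SE 0.43, adjusted p = 0.994) and 0.00 (SE 0.43, 95% interval -0.90 to 0.90). The change of the depletion effect from 24 to 72 h was -0.82 (SE 0.60, adjusted p = 0.736). The blocked fit gave this change an SE of 0.31, a 95% interval of -1.49 to -0.14 and a limma adjusted p of 0.164, so it was not called.

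Probe set 205661_s_at of FLAD1 did not share the lower signal at 72 h. It gave 146.8, 152.3 and 188.5 in control and 157.6, 139.1 and 209.9 in depleted cells at 72 h, with a log2 difference of 0.04 (SE 0.23, 95% interval -0.45 to 0.53, adjusted p = 0.969). The blocked fit gave this difference an SE of 0.14, a 95% interval of -0.26 to 0.34 and a limma adjusted p of 0.892. At 24 h it gave 155.3, 162.7 and 209.7 in control and 111.8, 123.0 and 184.3 in depleted cells, lower in all 3 sets with overlapping groups, and the log2 difference was -0.32 (SE 0.23, adjusted p = 0.803). The blocked fit gave that difference an SE of 0.14, a 95% interval of -0.62 to -0.02 and a limma adjusted p of 0.245. At 48 h it gave 159.4, 145.6 and 230.9 in control and 160.9, 190.7 and 189.3 in depleted cells, with both directions among the sets. The 2 probe sets had the same direction in 5 of 9 pairs, so the lower signal of FLAD1 at 72 h rests on 1 of them.

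**Figure D2:**
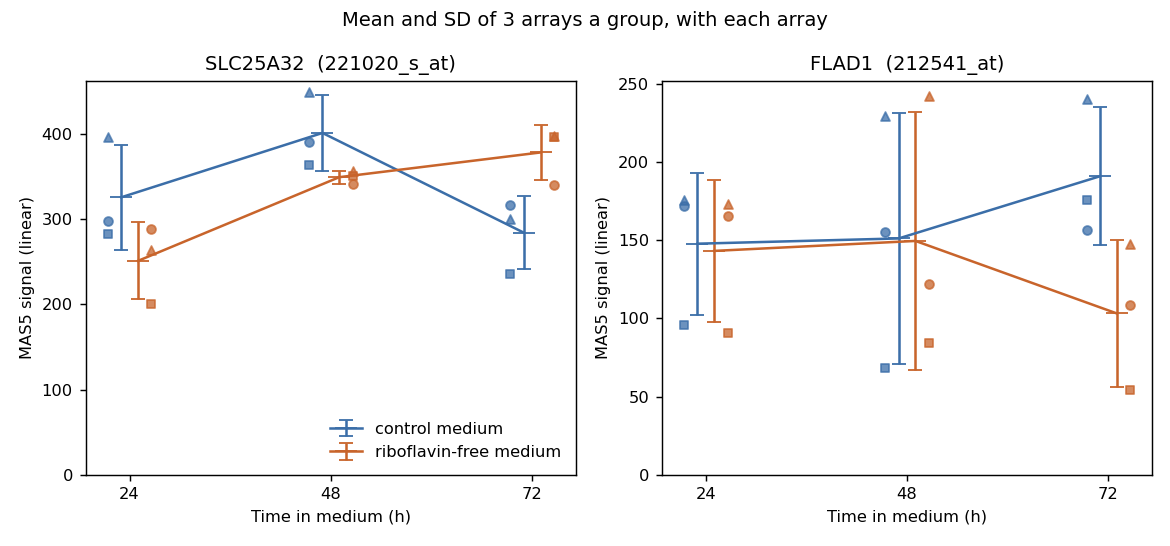
MAS5 signal (linear scale, from 0) against time in medium (h) for SLC25A32 and for probe set 212541_at of FLAD1, with lines through the group means, bars of ± 1 SD over 3 arrays, and each array beside its mean (circles set 1, squares set 2, triangles set 3). For SLC25A32 the depleted signal was higher at 72 h than at 24 h in all 3 sets, while for FLAD1 the depleted arrays lie below the control arrays at 72 h.

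SLC25A32, the carrier that brings FAD into mitochondria, was the only member with the same direction of difference in all 3 sets at each time. At 24 h the signals were 298.5, 283.0 and 396.2 in control and 289.0, 201.0 and 263.7 in depleted cells. At 48 h they were 390.7, 363.7 and 450.0 in control and 341.6, 350.6 and 356.4 in depleted cells, and at 72 h 316.6, 235.8 and 300.8 in control and 340.7, 396.8 and 398.2 in depleted cells. The depleted signal was thus lower than the control of its set in 6 of 6 pairs at 24 and 48 h and higher in 3 of 3 at 72 h. Some of these log2 differences were small: -0.04 in set 1 at 24 h, -0.05 in set 2 at 48 h and 0.10 in set 1 at 72 h. The groups did not overlap at 48 h (lower in depleted cells, as in 3.77% of all probe sets) or at 72 h (higher, as in 11.5%). A probe set lower in 3 of 3 sets at 24 h and higher in 3 of 3 at 72 h was found in 3.93% of all, and 1 lower in 3 of 3 at 48 h and higher in 3 of 3 at 72 h in 2.63%.

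By their means the groups of SLC25A32 ran from 401.5 ± 44.1 (SD, n = 3) in control cells at 48 h through 378.6 ± 32.8 in depleted cells at 72 h, 349.5 ± 7.46 in depleted cells at 48 h, 325.9 ± 61.4 in control cells at 24 h and 284.4 ± 42.8 in control cells at 72 h to 251.2 ± 45.3 in depleted cells at 24 h. Each group overlapped with its neighbour in that order. The log2 differences of depleted from control cells were -0.36 (SE 0.20, 95% interval -0.78 to 0.07, adjusted p = 0.686) at 24 h, -0.19 (SE 0.20, adjusted p = 0.919) at 48 h and 0.40 (SE 0.20, 95% interval -0.02 to 0.82, adjusted p = 0.331) at 72 h. The opposite signs left an averaged difference of -0.05 (SE 0.11, 95% interval -0.29 to 0.20, adjusted p = 0.899). None of these passed the test with the block either, where the adjusted p was 0.237 at 24 h and 0.100 at 72 h.

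Within depleted cells SLC25A32 was higher at 72 h than at 24 h in all 3 sets, and the groups did not overlap (8.57% of all probe sets). The log2 difference was 0.57 (SE 0.20, adjusted p = 0.167) without the block, where 2.07% of all probe sets were called. With the block it passed (SE 0.15, 95% interval 0.25 to 0.90, adjusted p = 0.0283), as did 10.3% of all probe sets and 4.37% in the higher direction. In control cells the difference between the same times was -0.18 (SE 0.20, adjusted p = 0.987), in a comparison where none of the 8 members and 0.117% of all probe sets were called, or 0 and 1.22% with the block. The difference between the media in this change, which is also the change of the depletion effect from 24 to 72 h, was 0.76 (SE 0.28, adjusted p = 0.315), and with the block its 95% interval was 0.30 to 1.21 and its adjusted p 0.0623. None of the 8 members was called in that change, beside 0.645% of all probe sets without and 4.58% with the block. The blocked call in depleted cells was lost without the depleted array of set 2 at 24 h (0.48, adjusted p = 0.122) or at 72 h (0.46, 0.131), without that of set 3 at 24 h (0.55, 0.0805) or at 72 h (0.60, 0.0634), and without any whole set, where the differences were 0.75, 0.40 and 0.58 without sets 1, 2 and 3 (adjusted p 0.147, 0.183 and 0.214).

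**Figure D3:**
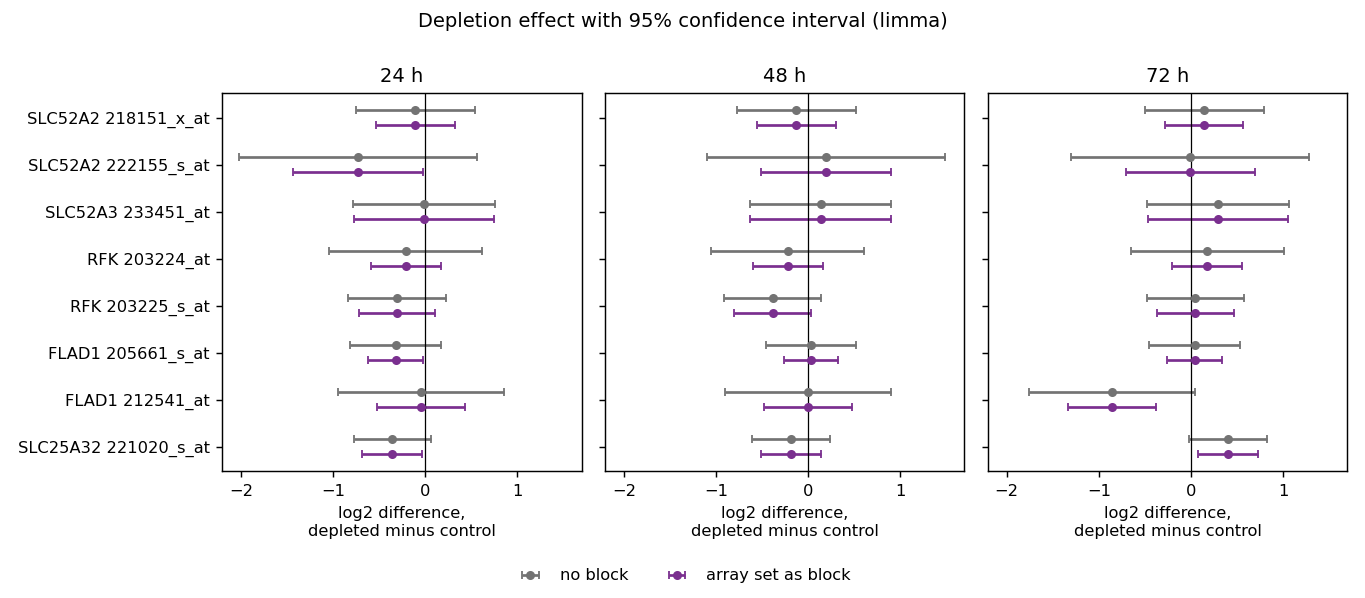
Log2 difference of depleted from control cells (x axis) at 24, 48 and 72 h for the 8 probe sets past the filter, with 95% confidence intervals from limma without a block (grey) and with the array set as block (purple). All 8 points lie below 0 at 24 h, those of SLC52A3 and FLAD1 212541_at close to it, and 6 of 8 lie above 0 at 72 h. The blocked intervals that leave out 0 at 24 h are those of SLC52A2 222155_s_at, FLAD1 205661_s_at and SLC25A32. Those that leave it out at 72 h are of FLAD1 212541_at and SLC25A32. Of these only FLAD1 212541_at at 72 h passed after adjustment.

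Side by side, all 8 probe sets past the filter had a difference below 0 at 24 h, as did 49.6% of all, with a median of -0.26. The differences ran from -0.73 to -0.01, and none was called. Of these, SLC52A3 233451_at (-0.01, higher in 2 of 3 sets) and FLAD1 212541_at (-0.04) were nearly level. The ninth, SLC52A3 228236_at, went the other way at 24 h, higher in 3 of 3 sets at very low signal. Its log2 difference was 0.05 (SE 0.24) in the fit without a filter. At 48 h 4 of 8 were below 0 (42.2% of all), and at 72 h 6 of 8 were above 0 (13651 of all 27307), with a median of 0.10. Several of these probe sets belong to 1 gene and all share the same arrays, so they are not independent of each other. At 24 h 5 of the 8 were lower in all 3 sets, 1 each for SLC52A2, RFK and SLC25A32 and both for FLAD1, beside 21.0% of all probe sets. The median distance from the estimate to the end of its 95% interval was 0.71 log2 units without the block and 0.42 with it, so for a typical member smaller differences at a single time could not be told from 0 with 3 arrays a group.

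The sets accounted for most of the variation of several members. Of the sum of squares over the 18 arrays, the set held 82.0% for RFK 203224_at, 68.9% and 62.8% for the 2 probe sets of SLC52A2, and 60.1% and 62.8% for those of FLAD1, against a mean of 31.5% over all probe sets past the filter. For SLC25A32 the set held 13.7%, the time 32.6% and the combination of medium and time 35.1%, against means of 13.3% and 11.7% over all. The medium alone held 15.2% for RFK 203225_s_at, 7.99% for FLAD1 212541_at and 0.75% for SLC25A32, against a mean of 10.6% over all. For SLC52A3 the remainder was 49.3% and 76.2%, which is the spread that neither set, medium nor time accounts for.

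**Figure D4:**
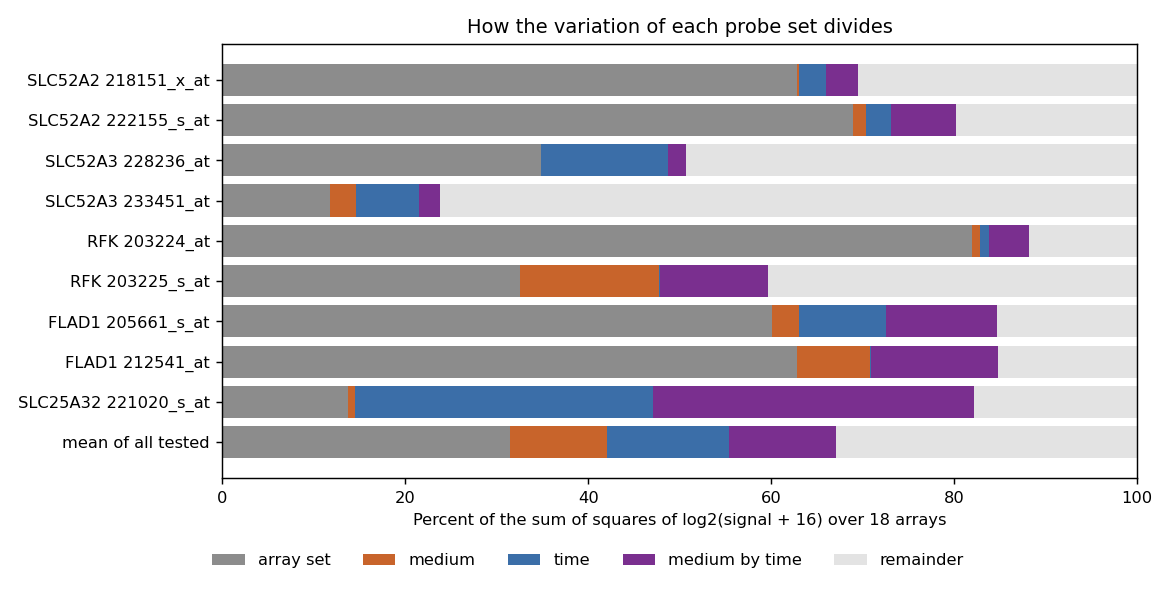
Percent of the sum of squares of log2(signal + 16) over 18 arrays that lay between array sets, media, times, the combination of medium and time, and in the remainder, for the 9 probe sets and as the mean over all 27307 past the filter. The set takes the longest stretch for the probe sets of SLC52A2 and FLAD1 and for RFK 203224_at, and medium by time for SLC25A32.

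Other genes of flavin handling and of vitamin supply were read from lists, with 1 probe set for each gene and all values given as log2 differences of depleted from control cells. Over all 12319 genes measured, 306 rose and 266 fell in the averaged effect without the block (2.48% and 2.16%), and 1035 and 1085 with it (8.40% and 8.81%). Of 9 measured genes for the hydrolysis, reduction and efflux of flavins none was called without the block, and the median difference was -0.05, beside 0.00 over all genes. ABCG2, an efflux pump of the apical membrane that exports riboflavin, was the 1 called with the block (-0.30, adjusted p = 0.0261, and 0.287 without it). Its difference was -0.69 at 24 h (SE 0.25, adjusted p = 0.424, and 0.0249 with the block) and -0.05 at 72 h (SE 0.25, adjusted p = 0.966). The other genes picked from this list were ACP6 (0.26, adjusted p = 0.248), ACP2 (-0.24, 0.337) and BLVRB (0.13, 0.678). They were not called in the averaged effect with the block either.

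Among 11 measured transporters of other water-soluble vitamins 1 fell and none rose, and with the block 4 fell. CD320, the cellular receptor for transcobalamin-bound vitamin B12, fell by 0.54 (SE 0.14, adjusted p = 0.0332). The biotin and pantothenate transporter SLC5A6 was at -0.39 and the thiamine transporter SLC19A3 at -0.30, and both passed only with the block (adjusted p = 0.00920 and 0.0345). TCN2, also picked from this list, was higher at 0.35 and passed in neither fit (adjusted p = 0.284, and 0.161 with the block). Among 19 measured enzymes that activate other water-soluble vitamins 1 fell, and with the block 1 rose and 4 fell. MMAB, which attaches the adenosyl group to cobalamin, fell by 0.68 (SE 0.12, adjusted p = 0.00443) in the average over the times and by 1.24 at 72 h (adjusted p = 0.00288), when NADSYN1, an enzyme of NAD synthesis, fell by 1.25 (adjusted p = 0.00986). PANK1 (-0.43), NADSYN1 (-0.42) and NADK2 (-0.28) passed in the averaged effect only with the block (adjusted p = 0.0459, 0.0259 and 0.0225). At 72 h 0 of the 19 rose and 2 fell, and with the block 2 and 4. The median over the 19 was 0.03 in the averaged effect and -0.24 at 72 h, beside -0.04 over all genes at 72 h.

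Of 65 measured flavoenzymes, which hold FAD or FMN, 1 rose and 3 fell, and with the block 5 rose and 14 fell, with a median of -0.05. The flavoenzyme TXNRD1, which reduces thioredoxin, rose by 0.98 (SE 0.15, adjusted p = 0.00165), and ACOX2, a peroxisomal oxidase, fell by 0.74 (SE 0.12, adjusted p = 0.00195). PCYOX1, a prenylcysteine oxidase, and AIFM1, a flavoprotein of the mitochondrial intermembrane space, fell by 0.54 (SE 0.14, adjusted p = 0.0344) and 0.45 (SE 0.12, adjusted p = 0.0474). These values are averages over the times. TXNRD1, ACOX2, PCYOX1 and AIFM1 were at 0.50, -0.46, -0.03 and -0.05 at 24 h, where none of them was called. Their differences at 72 h were 1.78, -1.10, -1.22 and -0.83, and all were called. At 72 h 2 of the 65 rose and 4 fell (3.08% and 6.15%, beside 1.92% and 2.47% of all genes), and with the block 7 and 10 (10.8% and 15.4%, beside 6.21% and 8.65%).

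The genes whose values ran most like those of each member over the 18 arrays, once the mean of each set had been taken away, are given as a description. The arrays share their groups, so a gene that moves with medium or time resembles any other that does. SLC25A32 was most like ME2 (r = 0.89), NIFK (0.88) and MCL1 (0.88), and FLAD1 205661_s_at was most like TCOF1 (0.85), LGALS3 (0.84) and NOL10 (0.84). RFK 203224_at was most like PRR14L (0.85), CHMP2B (0.84) and MSRB3 (0.83). For SLC52A3 233451_at these were C17orf100 (0.89), HMGN3-AS1 (0.82) and CTSE (0.79), and for SLC52A2 218151_x_at H2AJ (0.75), NOS1AP (0.75) and BOLA3-DT (0.74).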

How the data were processed

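Total RNA of 18 Caco-2 samples was hybridised to 1 Affymetrix array each. The deposited values are MAS5 signals, an intensity per probe set on a linear scale that the authors had scaled, per the submitters' processing notes, with its version not given in the sources used here. Scans and detection calls were not used here. Of 54675 probe sets the 62 controls were left out. Signals were taken as log2(signal + 16), and probe sets with a mean at or above the median (5.15, a signal of 19.6) were kept, which left 27307. By the platform annotation 41097 probe sets carry 1 gene symbol, 1801 several and 11777 none.

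A single limma fit (3.58.1, R 4.3.3) of the 18 arrays held 1 mean for each of 6 groups, without a block, with Benjamini-Hochberg adjustment over every probe set kept and a threshold of 0.05. All differences and SEs are from this fit unless the block is named. Array numbers pair the groups by set: after group means were taken away, the correlation was 0.302 to 0.602 for the 45 pairs of arrays of 1 set. For pairs from different sets it was -0.754 to 0.163. The arrays of 1 group lie in different sets, and taking away their mean pushes their correlations below 0. The low end is thus partly built in. For each of the 18 arrays the best match was in its own set. The set as a replicate block was therefore fitted beside each result, and no array was a copy of another (0 identical pairs). The script was tested on simulated data.

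The members, the other gene lists and the motifs were chosen with earlier results of these data known. All members are named. From each other list came up to 4 genes of smallest p in the averaged effect and up to 2 called at 72 h, with 1 probe set per gene (the highest mean), and the 3 genes most like each member by Pearson's r. ABCG2 at 24 h was looked at after its values were seen. Promoters are from RefSeq (GRCh38.p14). The array files name no build, so no probe positions are given. Alternatives were other pseudocounts (1 and 64), filters (none, or a mean signal of at least 50), scalings (75th percentile, quantile), a random block, a fit on the groups compared alone and leaving out arrays or sets. Python 3.11.15 with matplotlib 3.10.9 drew the figures.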

Additional observations from a re-analysis of the deposited data

Results flagged for a closer look

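The effect of depletion on SLC25A32, the mitochondrial carrier of folate and FAD, differed in sign between times in all 3 sets: lower in depleted cells at 24 and 48 h and higher at 72 h. The log2 difference at 72 h exceeded that at 24 h by 0.76 (SE 0.28, limma adjusted p = 0.315, and 0.0623 with the array set as block), and that at 48 h by 0.59 (SE 0.28, adjusted p = 0.587, and 0.170 with the block). Both were selected for the opposite signs in every set, both tests of the difference missed the threshold, and the comparison with 48 h was added after the data were seen. Of all probe sets 3.93% were lower in all sets at 24 h and higher in all at 72 h, and 2.63% lower at 48 h and higher at 72 h.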

How the results depend on the processing

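Of 72 single differences of the members, 3320 values under the alternatives gave 188 turned signs, none of them of a called value, and 33 new calls, all 33 in fits with a block. The number of member probe sets called was 0 without a block in every comparison and alternative, and 1 with the block or the random block (set correlation 0.381) at 72 h (FLAD1, adjusted p = 0.0202 and 0.0462) and for 72 against 24 h in depleted cells (SLC25A32, 0.0283 and 0.0306). Over all arrays the block changed no other call of a member. Leaving out arrays or sets kept the number of members called within 0 to 1 in those comparisons and in the averaged effect, and at 0 in the others. Counts over all probe sets moved more. In the order depletion at 24, 48 and 72 h, averaged, 72 against 24 h in control and in depleted cells, and the change of the effect from 24 to 72 h, the counts without a block were 59, 22, 1136, 1162, 32, 565 and 176. With the block they were 646, 189, 3631, 4097, 332, 2812 and 1251, with the random block 523, 181, 3253, 3618, 260, 2437 and 1074, and with the block and no filter 205, 64, 2273, 2485, 135, 1454 and 517. For the same comparisons without the average, limma on the groups compared alone called 0, 0, 410, 0, 40 and 39, with 1637, 1545 and 1352 at an unadjusted p under 0.05 where the count was 0. Counts that moved over 1.5-fold in other ways were, without a filter, 39, 8, 330 and 65 (24 h, 48 h, depleted cells between times, change of the effect), and with centring at the 75th percentile 25, 7, 364 and 94 (same order). A pseudocount of 64 gave 93, 60 and 276 (24 h, control cells between times, change of the effect), the stricter filter gave 51 and 270 (the latter 2 of these), and quantile normalization gave 50 (control cells between times). Leaving out arrays or sets, with or without the block, gave 0 to 738, 0 to 197, 45 to 3799, 41 to 3739, 0 to 348, 0 to 3040 and 0 to 1350 in the order above. The blocked fits without single arrays or without a filter were added after the data were seen. With 3 arrays a group, precision is limited by their number.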
